A study of Mus musculus with 48 samples.

Results

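In mouse embryonic stem cells (mESCs) lacking NRDE2, 84 protein-coding genes lost Ribo-seq signal beyond the change of their mRNA. They were chosen from measured values. For each gene, the log2 ratio of *Nrde2*-KO over WT was taken from mean CPM (reads per gene scaled to a fixed library total) plus 0.25 in Ribo-seq and in each of the 2 RNA-seq experiments without cycloheximide (CHX). The mean of both RNA-seq ratios was subtracted from the Ribo-seq ratio, and genes at or below -0.7 were kept. The gene had to lie on an autosome and reach a WT mean of at least 5 CPM in Ribo-seq and in each RNA-seq experiment, which 7797 genes did, so that the 84 genes were 1.08% of them. With this limit set on the mean of both RNA-seq experiments there were 91. *Nrde2*, *Cdk2*, *Lefty1* and *Lefty2* were dropped by the rule. All values of *Nrde2*-KO against WT in Ribo-seq and in RNA-seq without CHX are therefore a description and carry no test. Tests were run only between groups that the selection did not use. Fits of libraries without CHX, and those joining libraries with and without CHX, also took their spread and scaling from libraries of the selection.

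Ribosome profiling sequences the mRNA fragments that ribosomes protect from nuclease, so that the reads of a gene depend both on its mRNA and on how many ribosomes sit on each copy. Setting it against RNA-seq gives the signal relative to the RNA of each gene. The RNA-seq was of total RNA depleted of ribosomal RNA, so that it can also count transcripts that are nuclear, unspliced or spliced wrongly. Neither assay says at which step of RNA processing or translation a change arises. NRDE2 is a nuclear protein of which a part is bound by the helicase MTREX, a cofactor of the nuclear exosome, and both NRDE2 and its partner CCDC174 contact U1 snRNA. U1 snRNA pairs with the 5′ splice site (5′SS), the junction of exon and intron, and transcripts spliced wrongly can carry a premature stop codon that leads to nonsense-mediated decay during translation. CHX blocks elongation of translation and with it this decay.

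All libraries were of male mESCs of mixed 129 and C57BL/6 background with a 4-hydroxytamoxifen (4OHT)-inducible Cre, grown in serum with LIF and 2i, with 2 libraries in each group. *Nrde2*-KO was induced by 100 nM 4OHT for 4 d in cells with loxP sites around part of *Nrde2*, and was sequenced next to WT cells of this conditional line in RNA-seq (2 experiments, the second also with CHX at 0.1 mg/ml for 4 h) and in Ribo-seq, for which cells had 3 d of 4OHT before they were seeded overnight. *Mtrex*-KO had 3 d of the same 4OHT, with WT cells of its own conditional line. In *Ccdc174-dTAG* cells, which carry a degradation tag on CCDC174, the protein was depleted by 500 nM dTAG-13 for 24 h and the same tagged line without dTAG-13 served as WT, each in the absence and presence of CHX. *Nrde2*Δ*200*, a truncation that removes the MTREX-binding part, and the point mutant *Nrde2-D174R* were untreated and shared the WT libraries of the first *Nrde2*-KO experiment. Edited lines were expanded from picked clones, and neither labels nor methods used here say whether replicates came from separate clones or cultures, so that p-values measure the spread between libraries, which may be technical.

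The RNA-seq libraries held 28683644 to 36272309 reads in genes and the Ribo-seq libraries 3475051 to 5035940. *Nrde2* mRNA, the targeted gene, was 41.8 and 41.1 CPM in WT and 19.9 and 21.8 in *Nrde2*-KO in the first experiment, 50.6 and 48.0 against 19.4 and 18.97 in the second, and 11.5 and 13.7 against 2.30 and 3.68 in Ribo-seq. With CHX it was 266 and 240 CPM in WT and 284 and 274 in the libraries labelled *Nrde2*-KO, so that this value did not check those labels. Exons outside the deleted part are counted with and without CHX, and why the groups were level with CHX was not tested. *Mtrex* was 116 and 112 CPM in WT and 31.6 and 34.4 in *Mtrex*-KO. *Ccdc174* mRNA checks nothing, because dTAG-13 acts on the protein. All 10 mESC marker genes were at 1 CPM or more in every RNA-seq group, and no group had more than 2 of 7 feeder fibroblast markers at that level. Genes that mark 2-cell-like cells summed to 1.79 and 2.80 CPM in the WT libraries of the first experiment and to 18.8 and 27.5 in *Nrde2*-KO, 5.21 to 5.45 against 71.8 to 76.1 in the second, and 4.00 to 10.16 in *Mtrex* WT against 70.8 to 195 in *Mtrex*-KO, while *Ccdc174-dTAG* without CHX had 2.46 to 6.40 against 2.40 to 4.16 in WT. In such bulk libraries, fewer cells of a type and less RNA per cell cannot be told apart.

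Since NRDE2 and CCDC174 act with U1 snRNA, the members' 5′SSs that are least like the most frequent bases are shown first. Each sequence holds the last 3 bases of the exon and the first 6 of the intron, 5′ to 3′ on the gene's strand, read from the GRCm38 (mm10) genome at annotated junctions, with the GT that begins the intron in capitals. The first line is the most frequent base at each position over 207613 introns that begin with GT, and the others are the lowest-scoring sites of the 8 members whose weakest site scored lowest against these base frequencies.
Most frequent bases: cagGTaagt
*Tmem150a*: ttaGTatcc
*Ipo4*: ggaGTatcc
*Itpr3*: gagGTcttg
*Ercc4*: aagGTccac
*Tnpo2*: gatGTatcc
*Mdn1*: aagGTccaa
*Fam169a*: cagGTcctg
*Skiv2l*: tcgGTacac
All these sites join coding exons. They belong to intron 7 of 7 of *Tmem150a* (chr6:72358757-72359005, plus strand), intron 26 of 29 of *Ipo4* (chr14:55627668-55627784, minus), intron 52 of 57 of *Itpr3* (chr17:27117926-27118356, plus) and intron 4 of 10 of *Ercc4* (chr16:13123542-13125250, plus). The others are intron 2 of 24 of *Tnpo2* (chr8:85038490-85040461, plus), intron 85 of 101 of *Mdn1* (chr4:32756516-32757736, plus), intron 3 of 12 of *Fam169a* (chr13:97093691-97094061, plus) and intron 10 of 27 of *Skiv2l* (chr17:34846174-34846521, minus). The coordinates are those of the intron. *Tmem150a*, *Ipo4* and *Tnpo2* share the intron start GTATCC, which was counted as a possible mark of U12-type introns. The minor spliceosome splices such introns without U1 snRNA, and the score, made over all introns that begin with GT, does not set them apart. Their low scores therefore need not mean weak sites for U1 snRNA, and whether U1 snRNA pairs with them was not measured.

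Across the 84 members, the Ribo-seq ratio less the RNA-seq ratio ran from -1.66 to -0.70 on the log2 scale with a median of -0.79, and 15 members were at or below -1. The Ribo-seq ratio itself had a median of -0.86. It was below 0 in 80 members, as in 44.0% of the genes that met the limits, and at or below -1 in 35 members, as in 2.28% of them. Both *Nrde2*-KO libraries were below both WT libraries in Ribo-seq in 75 members (28.2% of all genes that met the limits), both were above in 2 (37.7%), and the groups overlapped in 7. The mRNA of the members had no common direction, with a median RNA-seq ratio of 0.01. The mean RNA-seq ratio was at or below -0.5 in 24 members (10.7% of the genes that met the limits), between -0.5 and 0.5 in 51, and at or above 0.5 in 9 (4.76%). The selection fixed the Ribo-seq shares, which are therefore not a result about the members. On the opposite side, 554 genes or 7.11% had a Ribo-seq ratio at least 0.7 above their RNA-seq ratio, so that losses of this size were less frequent than gains on the CPM scale, which is relative to each library's total.

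**Figure D1:**
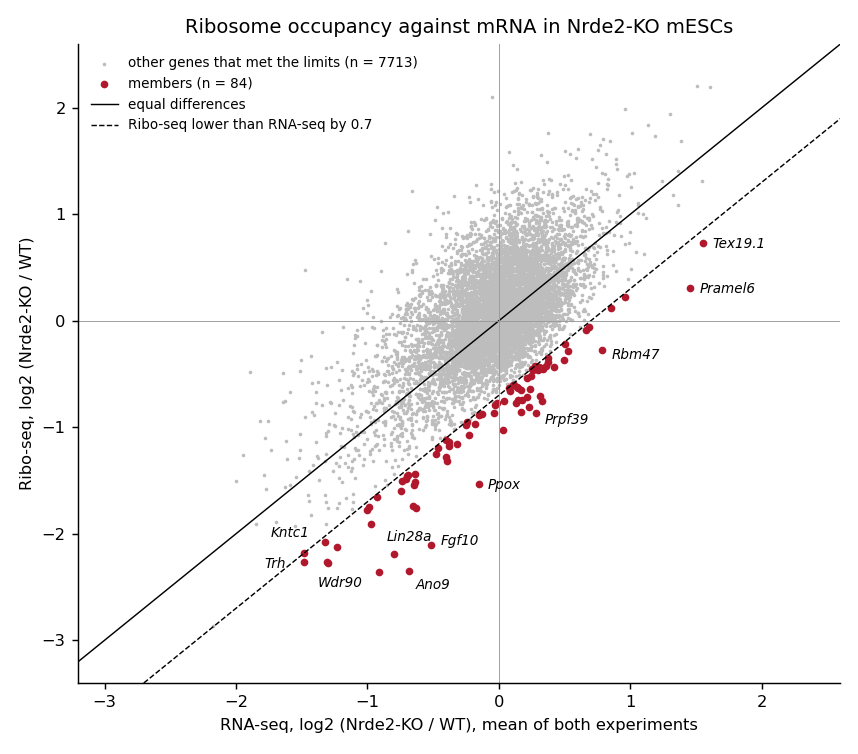
Log2 ratio of *Nrde2*-KO over WT in Ribo-seq (y axis) against the mean of that ratio in the 2 RNA-seq experiments without CHX (x axis), from mean CPM plus 0.25 of 2 libraries per group, for the 7797 genes that met the limits of expression. The 84 members lie on or below the line at a difference of -0.7 that chose them and spread over RNA-seq ratios from -1.48 to 1.56.

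The selection rested on few Ribo-seq reads for some members. Over both WT Ribo-seq libraries the members had 83 to 5717 reads with a median of 303, and 11 members had under 100. Over both *Nrde2*-KO Ribo-seq libraries they had 12 to 2304 reads with a median of 127.5. The members with the lowest differences had few, with 20 in *Ano9*, 15 in *Fgf10* and 25 in *Wdr90*. The difference was at or below -0.7 within the libraries numbered 1 in 73 members and within those numbered 2 in 43, and all 84 were below 0 in both. Leaving out *Nrde2*-KO Ribo-seq replicate 1 left 52 genes at or below -0.7, and leaving out replicate 2 gave 224. Scaling each table by median-of-ratios factors in place of CPM gave 135. A set of 24 members stayed selected whichever of the 12 libraries was left out: *Ano9*, *Fgf10*, *Wdr90*, *Lin28a*, *Ppox*, *Pramel6*, *Prpf39*, *Khdc3*, *Plxnb1*, *Rbm47*, *Cpt1c*, *Oplah*, *Itpr3*, *Ipo4*, *Tnpo2*, *Fam169a*, *Brpf3*, *Zfp111*, *E2f8*, *Cdk6*, *Recql4*, *Wdr77*, *Sh3gl2* and *Cluh*. Just inside the limit were *Mat2a* at -0.705, *Pafah1b2* at -0.704 and *Acap1* at -0.703, and just outside it *Wdr62* at -0.6998, *Tex15* at -0.697 and *Isyna1* at -0.695. *Dnmt1* and *Tti1*, whose splicing the study examined, were no members, with differences of -0.22 and 0.56. Their Ribo-seq ratios were -0.88 and -0.86.

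*Ano9*, *Fgf10*, *Wdr90* and *Lin28a*, which had the lowest differences of all members, had lost mRNA too, but more Ribo-seq signal. *Ano9*, an anoctamin family membrane protein (chr7:141101212-141117806), had 10.9 and 7.79 CPM in WT and 1.94 and 1.32 in *Nrde2*-KO Ribo-seq. Its RNA-seq was 42.2 and 40.6 against 27.0 and 30.4 CPM in the first experiment and 22.7 and 22.7 against 13.2 and 11.8 in the second. Every *Nrde2*-KO library was below its WT libraries in both assays, with log2 ratios of -2.35 in Ribo-seq and -0.69 in RNA-seq.

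*Fgf10*, a growth factor of limb and lung budding (chr13:118669791-118792115), fell to a similar extent. Its Ribo-seq signal was 5.28 and 6.51 CPM in WT against 0.884 and 1.47, and its RNA-seq signal 9.19 and 8.48 against 4.60 and 5.64, then 7.502 and 9.12 against 4.82 and 8.87. Only in the second RNA-seq experiment did the groups overlap.

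*Wdr90*, a WD repeat protein of centrioles (chr17:25844771-25861501), had 10.6 and 12.4 CPM in WT Ribo-seq and 2.30 and 1.77 in *Nrde2*-KO, with RNA-seq of 24.2 and 27.2 against 14.7 and 15.96 and of 24.4 and 20.8 against 11.2 and 9.78. *Lin28a*, an RNA-binding protein that blocks maturation of the let-7 miRNAs (chr4:134003330-134018841), had 62.1 and 58.1 CPM against 12.6 and 13.4 in Ribo-seq, a log2 ratio of -2.19. Its RNA-seq ratio was -0.80, from 142 and 136 against 77.6 and 72.8 CPM and from 161 and 204 against 101 and 121. For both genes no *Nrde2*-KO library reached a WT library in either assay.

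In another kind of member, the mRNA was at about the WT level and the Ribo-seq signal was low. *Ppox*, protoporphyrinogen oxidase of haem synthesis (chr1:171275990-171281186), had 9.08 and 9.70 CPM in WT Ribo-seq and 2.65 and 3.53 in *Nrde2*-KO, while its RNA-seq was 17.7 and 18.2 against 16.9 and 18.03 CPM and 14.5 and 13.3 against 11.9 and 11.2. Its RNA-seq libraries overlapped in the first experiment only. *Prpf39*, a factor of the U1 snRNP (chr12:65036333-65063386), had 12.9 and 14.3 CPM against 7.78 and 6.92 in Ribo-seq, with RNA-seq at 48.8 and 43.0 against 53.7 and 49.9 and at 76.5 and 59.9 against 85.3 and 92.9. All its *Nrde2*-KO libraries were thus below WT in Ribo-seq and above WT in RNA-seq.

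Another group of members had more mRNA in *Nrde2*-KO without a matching gain in Ribo-seq. *Pramel6*, of the Prame family of preimplantation embryos (chr2:87506565-87510872), had 11.0 and 13.9 CPM in WT RNA-seq against 25.6 and 31.8, and 13.7 and 12.3 against 43.7 and 43.7 in the second experiment. Its Ribo-seq signal was 7.73 and 10.47 CPM in WT and 9.01 and 13.7 in *Nrde2*-KO, which overlapped. *Tex19.1*, a germline gene that restrains retrotransposons (chr11:121146143-121148319), had RNA-seq of 38.6 and 52.9 against 120.7 and 173.6 CPM and of 93.9 and 87.2 against 264 and 226. Its Ribo-seq signal was higher too, at 113 and 109 CPM in WT and 173 and 195 in *Nrde2*-KO, and it belonged to the list because its mRNA was up further. *Pramel6* and *Tex19.1* have near copies in the genome between which uniquely mapped reads may be split. Both had more mRNA in *Nrde2*-KO, where the 2-cell-like markers were high. In *Mtrex*-KO, where these markers were high too, *Tex19.1* was up-regulated and *Pramel6* down-regulated. In the WT of *Ccdc174-dTAG* without CHX the markers were low, while *Pramel6* had 77.8 and 106 CPM and *Tex19.1* 200 and 270. The part of 2-cell-like cells in these values was not tested.

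**Figure D2:**
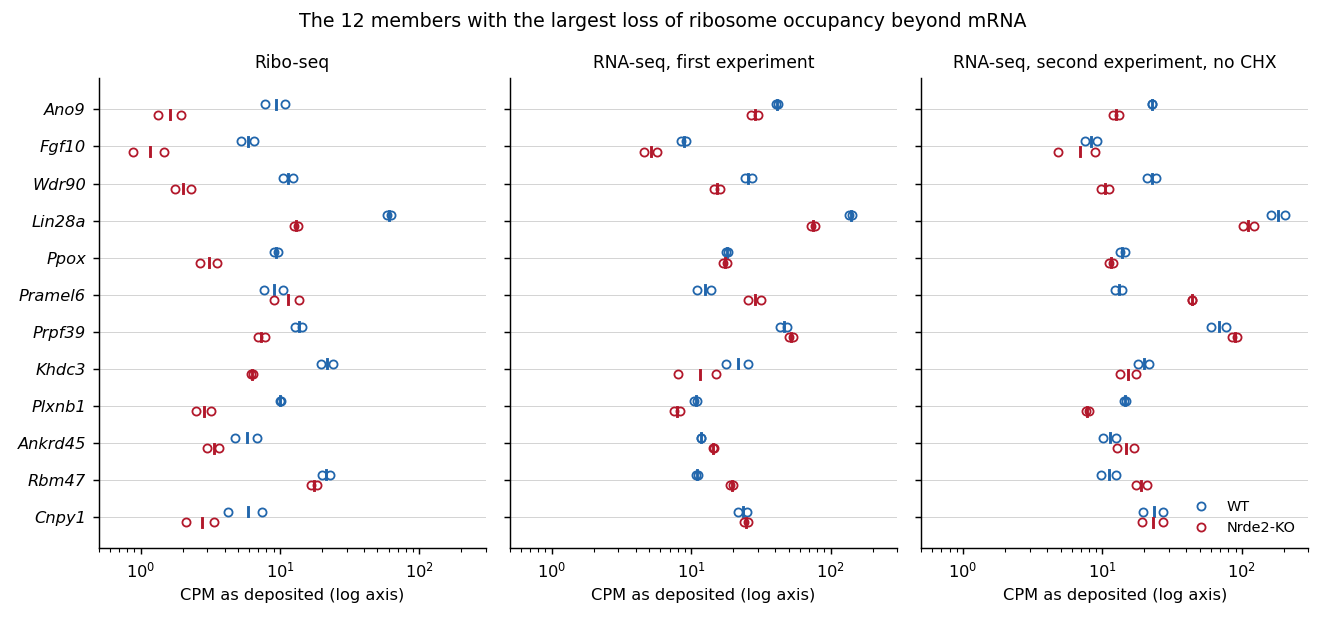
CPM of each library (points, log axis) for 12 members in WT and *Nrde2*-KO, in Ribo-seq and in both RNA-seq experiments without CHX, with a bar at the mean of 2 libraries per group. The Ribo-seq points of *Nrde2*-KO lie below those of WT for *Ano9*, *Fgf10*, *Wdr90*, *Lin28a*, *Ppox* and *Prpf39* and overlap with WT for *Pramel6*.

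Of the remaining members with the 12 lowest differences, *Khdc3*, a maternal factor of the early embryo, had 19.8 and 23.9 CPM in WT Ribo-seq against 6.36 and 6.18. *Plxnb1*, a receptor of semaphorins, had 10.1 and 10.1 against 3.18 and 2.502, and *Cnpy1* 7.49 and 4.21 against 2.12 and 3.38. In all of these the groups did not overlap. *Ankrd45* had 6.87 and 4.72 CPM against 3.00 and 3.68. *Rbm47*, an RNA-binding protein, had nearly level Ribo-seq of 22.8 and 20.1 CPM against 18.6 and 16.8, and higher RNA-seq of 11.1 and 10.8 CPM in WT against 18.97 and 20.01 in *Nrde2*-KO in the first experiment.

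Among the 10 members with the most Ribo-seq signal in WT, where reads were most numerous, *Mdn1*, the midasin ATPase of large ribosomal subunit maturation, had 345 and 372 CPM in WT and 143 and 169 in *Nrde2*-KO. *Cluh*, which binds mRNAs of mitochondrial proteins, had 218 and 236 against 79.9 and 85.2. *Hells*, a chromatin remodeller needed for DNA methylation, had 183 and 181 against 92.1 and 122. Each of these genes had both *Nrde2*-KO libraries well under both WT libraries. The same was seen for *Cherp*, a U2 snRNP-associated factor, with 168 and 178 CPM against 85.2 and 104, and for *Ccnd1*, cyclin D1, with 126 and 123 against 43.7 and 46.9. *Itpr3*, an IP3-gated calcium channel of the endoplasmic reticulum, had the lowest Ribo-seq ratio of the 10 genes, from 117 and 130 CPM to 24.4 and 26.8. This was a log2 ratio of -2.26, of which the mean RNA-seq ratio of -1.31 was the larger part. The losses were smaller in *Mat2a*, which makes S-adenosylmethionine, with 132 and 142 against 93.3 and 106 CPM, in *Tnpo2*, a nuclear import receptor, with 128 and 137 against 70.0 and 91.5, and in *Bclaf1* with 122 and 126 against 80.1 and 92.9. *Tex19.1* was the only one of the 10 with higher Ribo-seq signal in *Nrde2*-KO. The mRNA was lower too in *Cluh*, *Ccnd1* and *Mdn1*, with mean RNA-seq ratios of -0.70, -0.69 and -0.46. It was nearly level in *Cherp* at -0.12 and *Hells* at -0.01. In *Tnpo2*, *Bclaf1*, *Mat2a* and *Tex19.1* it was higher, at 0.21, 0.25, 0.25 and 1.56.

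The depletion of CCDC174 for 24 h asks whether a U1-associated partner of NRDE2 moves the mRNA of the same genes, in libraries the selection never saw. Of the 84 members, 26 (31.0%) were down-regulated in *Ccdc174-dTAG* without CHX at an adjusted p under 0.01 (limma, Benjamini-Hochberg over 14889 genes), against 4.53% of all genes tested and 7.26% of those that met the limits. None was up-regulated by limma, edgeR or DESeq2, and 5 were higher at an unadjusted p under 0.05, where 1.04% of all genes and 0.911% of those that met the limits passed the adjusted one. The median log2 fold change was -0.29 in the members and 0.02 over all genes. A change beyond 2-fold was seen in 10 members, with 1.18% of all genes and 1.45% of those that met the limits called: *Trh*, *Itpr3*, *Kntc1*, *Oplah*, *Acap1*, *Skiv2l*, *Jak3*, *Myh7b*, *Wdr90* and *Ipo4*. The count rested in part on single libraries and was 10 of 84 without WT replicate 1 and 13 without *Ccdc174-dTAG* replicate 2, where 2.05% and 2.10% of all genes passed.

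*Itpr3* had 98.7 and 93.2 CPM in WT and 31.6 and 27.4 in *Ccdc174-dTAG*, a log2 fold change of -1.72 ± 0.12 (SE, n = 2 per group, limma adjusted p = 6.78e-08). *Kntc1*, a kinetochore protein that recruits dynein at mitosis, had 187 and 210 CPM in WT and 58.7 and 64.1 after depletion (-1.71 ± 0.10 SE, limma adjusted p = 8.52e-09). *Trh*, the precursor of thyrotropin-releasing hormone, had 97.5 and 49.6 CPM against 17.4 and 10.23, with a wide spread between its WT libraries (-2.39 ± 0.36 SE, limma adjusted p = 0.00024). In *Nrde2*-KO Ribo-seq these genes had likewise been low, *Kntc1* at 75.5 and 83.4 CPM in WT against 15.9 and 21.3 and *Trh* at 50.7 and 50.6 against 10.6 and 10.01. Their mRNA had fallen too. The log2 ratios of *Kntc1* were -2.08 in Ribo-seq and -1.32 in RNA-seq, and those of *Trh* -2.27 and -1.48.

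*Oplah*, 5-oxoprolinase of the glutathione cycle, went from 8.75 and 10.1 CPM to 3.22 and 2.87 (limma adjusted p = 3.32e-07). *Acap1*, a GTPase-activating protein for ARF6, went from 16.3 and 14.9 to 5.43 and 5.13 (limma adjusted p = 7.19e-07). *Skiv2l*, the helicase of the SKI complex that feeds the cytoplasmic exosome, went from 54.9 and 49.2 to 27.3 and 20.4 CPM, and *Ipo4*, an importin, from 34.8 and 30.0 to 19.3 and 13.7. No library overlapped between the groups in any of them. At the other end, *Tex19.1* at 0.46, *She* at 0.45, *Kbtbd7* at 0.31 and *Rragd* at 0.30 had the highest log2 fold changes and none passed.

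The down-regulation went with the mRNA change in *Nrde2*-KO. Of the 24 members with a mean RNA-seq ratio at or below -0.5, 17 (70.8%) were down-regulated in *Ccdc174-dTAG*, as were 367 of 811 other genes (45.3%) of that class. Of the 51 members between -0.5 and 0.5, 9 (17.6%) were down-regulated, and of the other genes of that class 169 of 6540 (2.58%). None of the 9 members at or above 0.5 was down-regulated by limma, with *Tpcn2*, an ion channel of lysosomes, the nearest at -0.47 (limma adjusted p = 0.0168), and 4 of 362 other genes (1.11%) were. These shares are a description, since the classes were cut on the values that chose the members.

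**Figure D3:**
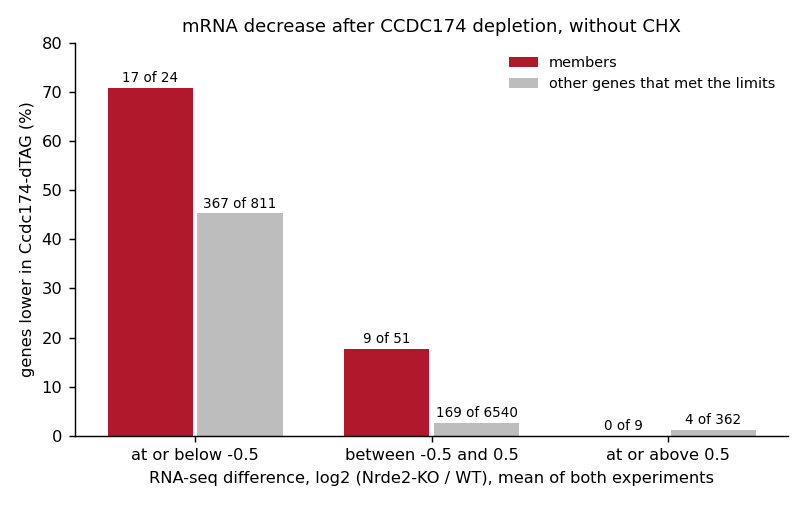
Percent of genes down-regulated in *Ccdc174-dTAG* without CHX (y axis, limma adjusted p under 0.01) in 3 classes of the mean RNA-seq log2 ratio of *Nrde2*-KO over WT (x axis), for members and for the other genes that met the limits, with the number of genes given at each bar. Members were at 70.8, 17.6 and 0% and other genes at 45.3, 2.58 and 1.11%.

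With CHX, *Ccdc174-dTAG* had 20 members down-regulated, where 6.17% of all genes and 8.93% of those that met the limits passed in that direction, and *Cherp* and *Tex19.1* up-regulated, where 2.86% and 3.58% did. Losses beyond 2-fold, found in 0.762% of all genes and 0.372% of those that met the limits, were those of *Trh* at -2.24, *Itpr3* at -1.49, *Fgf10* at -1.11 and *Skiv2l* at -1.04 on the log2 scale. Whether CHX changed the effect of CCDC174 depletion was tested as an interaction, and 1 of 84 members passed, where 0.205% of all genes and 0.385% of those that met the limits passed in that direction and 0.0396% and 0.0385% in the other. It was *Kntc1*, with CHX libraries of 210 and 216 CPM in WT and 114 and 114 in *Ccdc174-dTAG*. Its log2 fold change was -1.71 without and -0.93 with CHX, a difference of 0.77 ± 0.10 (SE, limma adjusted p = 0.00239). It no longer passed when any 1 of 5 libraries was left out. The next members were *Cherp* at 0.68, *Acap1* at 0.67, *Oplah* at 0.65, *Cluh* at 0.56 and *Ipo4* at 0.49, with limma adjusted p from 0.078 to 0.54. In WT cells alone CHX raised 18 members and lowered 21, where 25.0% and 24.6% of all genes and 15.9% and 38.1% of those that met the limits passed. On CPM as deposited these counts were 24 and 11, with 35.99% and 11.7% of all genes, and the median of all genes moved from -0.02 to 0.21. *Mat2a*, whose mRNA is retained in the nucleus when methionine is ample, went from 707 and 816 CPM to 201 and 178, and *Taf1a*, of the RNA polymerase I selectivity factor, from 22.5 and 23.2 to 79.8 and 79.1.

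The *Nrde2*-KO libraries with CHX were not used in the selection, but the mRNA change of this knockout without CHX was. Down-regulated were 27 members, 32.1% of them (17.4% of all genes and 26.3% of those that met the limits), and 8 were up-regulated (10.8% and 10.1%). Beyond 2-fold were 9 of the losses (1.90% and 1.55%) and 2 of the gains (2.76% and 0.449%). At an RNA-seq ratio without CHX of -0.5 or below, 22 of 24 members (91.7%) and 698 of 811 other genes (86.1%) were down-regulated. Between -0.5 and 0.5 these were 5 of 51 (9.80%) and 1327 of 6540 (20.3%), and at or above 0.5 none of either. These shares by class are a description. *Fgf10* had 15.2 and 14.2 CPM in WT with CHX and 4.42 and 4.23 in *Nrde2*-KO with CHX (log2 fold change -1.76 ± 0.13 SE, limma adjusted p = 3.33e-06). *Wdr90* had 25.4 and 26.6 against 9.59 and 9.53 CPM (limma adjusted p = 1.15e-06). *E2f8*, a repressor of the E2F family, had 16.9 and 23.3 against 7.504 and 7.22 (limma adjusted p = 3.06e-05), and *Trh* 62.8 and 100 against 24.6 and 26.9 (limma adjusted p = 0.00267). These losses all had groups apart from each other. The members that rose were *Tex19.1* with 80.04 and 73.9 against 205 and 192 CPM, *Pramel6* with 8.05 and 6.10 against 18.8 and 18.02, *Piwil2*, a PIWI protein of the germline, with 26.1 and 23.4 against 46.8 and 47.0, and *Cpt1c*, *Pafah1b2*, *Prpf39*, *Rragd* and *Taf1a* by less. The 2-cell-like markers summed to 44.3 to 50.1 CPM in these *Nrde2*-KO libraries and 4.5 to 4.72 in their WT, and their part in the higher values was not tested.

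In *Mtrex*-KO the members went both ways, with 29 down-regulated (28.3% of all genes and 35.0% of those that met the limits) and 22 up-regulated (27.7% and 22.8%), and a median log2 fold change of -0.04. Beyond 2-fold were 15 of the losses (11.3% and 10.6%) and 9 of the gains (15.4% and 6.36%). On CPM as deposited the counts were 41 and 10, with 43.2% and 16.4% of all genes, because the median of all genes was -0.38 there and -0.02 after scaling. *Hmga1b*, an AT-hook chromatin protein with near copies, had 31.6 and 28.1 CPM in WT and 4.92 and 6.01 in *Mtrex*-KO (limma adjusted p = 2.51e-08). *E2f8* had 23.2 and 25.2 against 4.78 and 6.35, *Wdr90* 31.5 and 29.4 against 6.84 and 7.10, and *Fgf10* 7.002 and 8.02 against 1.31 and 2.24 CPM, and all passed. *Slc39a14*, a zinc and manganese transporter, rose the most of the members, from 13.2 and 17.0 CPM to 79.9 and 109 (log2 fold change 3.00, limma adjusted p = 6.56e-10). It was down-regulated in *Ccdc174-dTAG*, a direction opposite to that in *Mtrex*-KO. *Ercc4*, the XPF nuclease of nucleotide excision repair, rose from 27.1 and 20.1 to 60.5 and 51.6 CPM, *Dnmt3l*, a cofactor of the DNA methyltransferases, from 61.0 and 89.8 to 134 and 222, and *Tmem150a* from 8.47 and 9.34 to 13.8 and 23.7. The *Mtrex*-KO libraries stood apart, with 16.6% and 8.89% of their CPM on a single noncoding RNA, *Gm26917*, against at most 3.31% on any gene in the other RNA-seq libraries. Without replicate 1, 25 members were down-regulated.

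Down-regulation in *Ccdc174-dTAG* without CHX and in *Nrde2*-KO with CHX, which have separate controls, shared 18 members, 69.2% of the 26 and 66.7% of the 27. Of the genes that met the limits, 5.25% were lower in both, which was 72.3% of those lower in *Ccdc174-dTAG*. *Ccdc174-dTAG* and *Mtrex*-KO shared 13, 50% and 44.8% of their lists, where 3.54% of the genes that met the limits were lower in both, 48.8% of those lower in *Ccdc174-dTAG*. In all 3 comparisons 11 members were lower: *Acap1*, *Ano9*, *Ap1g2*, *Csnk2a1*, *E2f8*, *Itpr3*, *Kntc1*, *Recql4*, *Rtel1*, *Skiv2l* and *Wdr90*. Over all genes that met the limits, 3.12% were. A further 38 of 84 members (45.2%) were lower in none of *Ccdc174-dTAG* without or with CHX, *Nrde2*-KO with CHX and *Mtrex*-KO, as were 51.7% of the genes that met the limits.

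**Figure D4:**
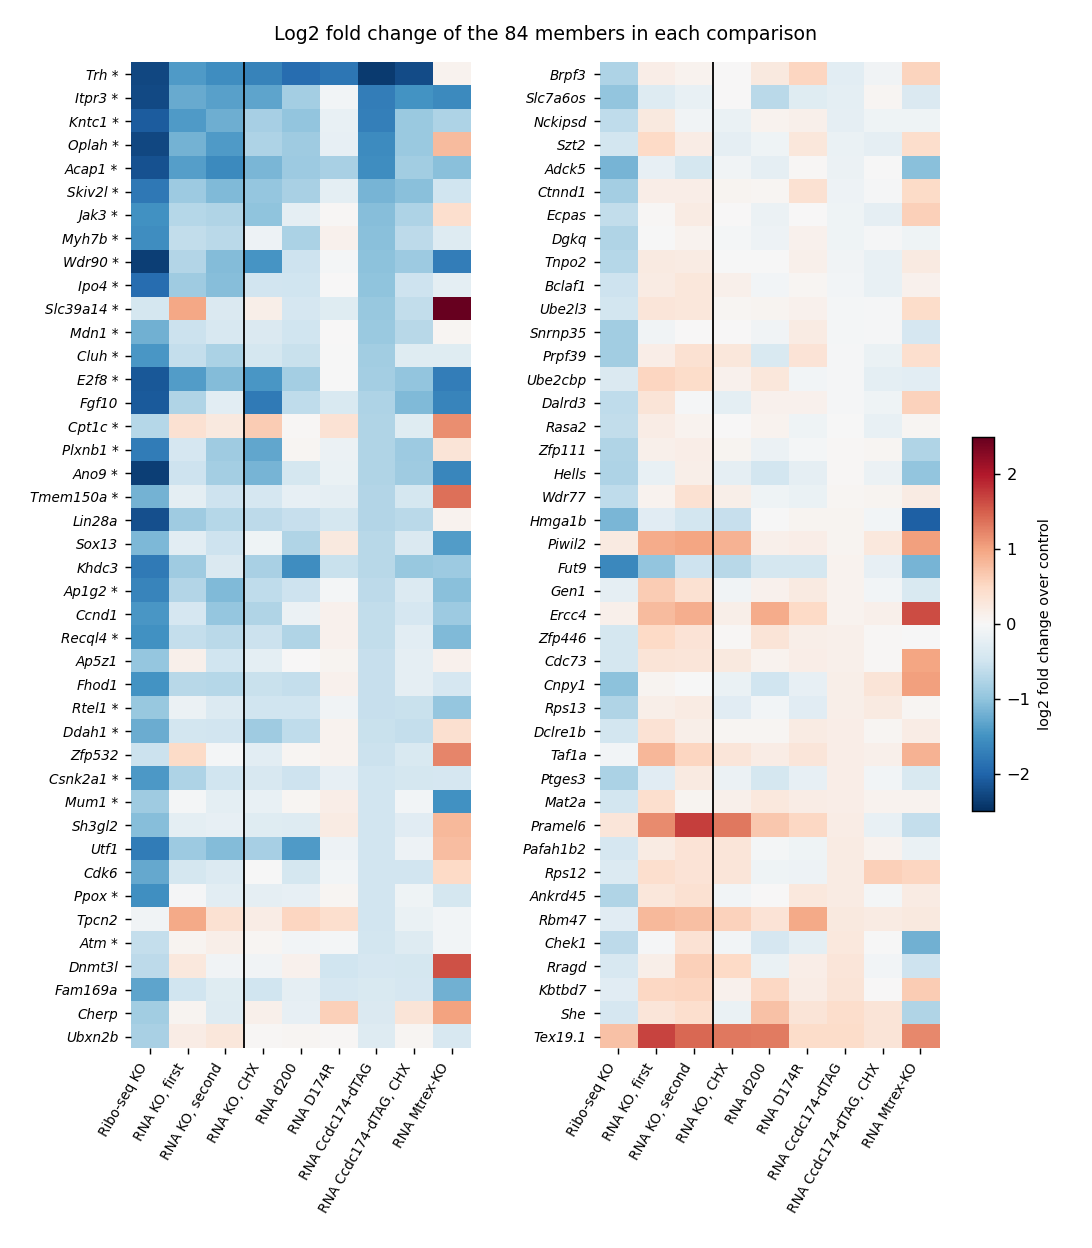
Log2 differences of the 84 members (rows, ordered by *Ccdc174-dTAG* without CHX) in each comparison (columns), on a colour scale that saturates at 2.5 in either direction. The first 3 columns come from mean deposited CPM of *Nrde2*-KO and WT and the others from scaled RNA-seq values, and a star marks the 26 members that passed in *Ccdc174-dTAG* without CHX (limma adjusted p under 0.01).

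The mutants *Nrde2*Δ*200* and *Nrde2-D174R* were set against the WT libraries that the selection had used, so that only values are given. In *Nrde2*Δ*200* the median log2 difference of the members was -0.15 (-0.01 over all genes), and 22 members were at or below -0.5 (6.34% of all genes and 5.16% of those that met the limits) and 6 at or above 0.5 (9.79% and 2.64%). *Trh* was at -1.90, *Khdc3* at -1.55, *Utf1* at -1.41, *Kntc1* at -0.98 and *Tex19.1* at 1.30. In *Nrde2-D174R* the median was 0.03, and 5 members were at or above 0.5 (5.04% of all genes and 1.85% of those that met the limits) and 3 at or below -0.5 (2.73% and 0.872%), *Trh* at -1.80, *Acap1* at -0.81 and *Khdc3* at -0.56. *Trh* was thus below WT in every *Nrde2* and *Ccdc174* comparison given here.

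Some members belonged to the functional groups that were listed, where 1.08% of all genes that met the limits were members. Pluripotency genes gave 2 members of 18 measured: *Lin28a*, described above, and *Utf1*, a chromatin factor of mESCs with 105 and 116 CPM in WT Ribo-seq against 30.4 and 35.0 in *Nrde2*-KO. Cyclins and their kinases gave 2 of 24, *Ccnd1* and *Cdk6*, both of the G1 phase, and none of the 24 passed in *Ccdc174-dTAG* without CHX by limma or edgeR, while 2 were lower by DESeq2 and 7 lower and 1 higher at an unadjusted p under 0.05 in limma. The list of DNA replication and repair gave *Ercc4* of 69 genes (1.45%). It did not hold the members *Recql4*, *Rtel1*, *Gen1*, *Dclre1b* and *Chek1*, which also act on DNA or its damage response. These were named after their values were seen, and other such genes outside the list were not counted. The median difference of Ribo-seq and RNA-seq was -0.21 in this list, and 8 of the 69 (11.6%) were down-regulated in *Ccdc174-dTAG*, against 7.26% of all genes that met the limits, and none up-regulated by limma, edgeR or DESeq2, with 3 higher at an unadjusted p under 0.05. The kinase *Atm* was the member among 9 genes of the TTT complex and its client kinases (median difference -0.28), of which 4 (44.4%) were down-regulated in *Ccdc174-dTAG*. *Dnmt3l* was 1 of 9 genes of DNA methylation, and *Prpf39* 1 of 25 of the U1 snRNP, Sm proteins and early spliceosome, of which none passed in *Ccdc174-dTAG* by limma or edgeR, while DESeq2 and an unadjusted p under 0.05 in limma each gave 1 in either direction.

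Of 51 cytosolic ribosomal proteins, *Rps12* and *Rps13* were members, and both have processed copies that can take their reads, so that their values are uncertain. The median difference was 0.16 over the 51. With members at 1.08% of the genes that met the limits, short lists can hold none without a depletion. No member was found among 41 translation initiation and elongation factors, 16 genes of nonsense-mediated decay and the exon junction complex, 19 of the nuclear exosome, 15 of the ATF4 response, 13 selenoproteins, 20 tRNA synthetases and 37 chromatin repressors. The same held for 24 histones (median difference 0.36) and 78 genes of the mitochondrial ribosome and respiratory chain (median difference 0.41), where the median over all genes that met the limits was 0.06.

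The members had long coding sequences. The median was 1917 nt in the members, 1458 nt in 7796 genes that met the limits and had an annotated coding transcript, and 1010 nt in the 554 genes on the opposite side. In 5 bins of 1559 or 1560 genes from the shortest to the longest coding sequences, 11, 14, 14, 19 and 26 genes were members, 0.705% to 1.67% of each bin, while genes on the opposite side went from 225 to 66, 14.4% to 4.23%. The members had a median of 12 introns against 9, a coding GC content of 54.5% against 52.9%, and a 3′ UTR of 1146 nt against 981. Their WT Ribo-seq over RNA-seq had a median log2 ratio of -0.88 against -1.03. Genes on the opposite side went further in the same direction in coding GC content (56.4%) and in this ratio (-0.48). In intron number (6) and 3′ UTR (556 nt) they went the other way. Over all genes of the length bins, the median difference of Ribo-seq and RNA-seq fell from 0.27 in the shortest to -0.04 in the longest. These features were not used by the rule, but the difference they are set against was, and no test was made of them.

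**Figure D5:**
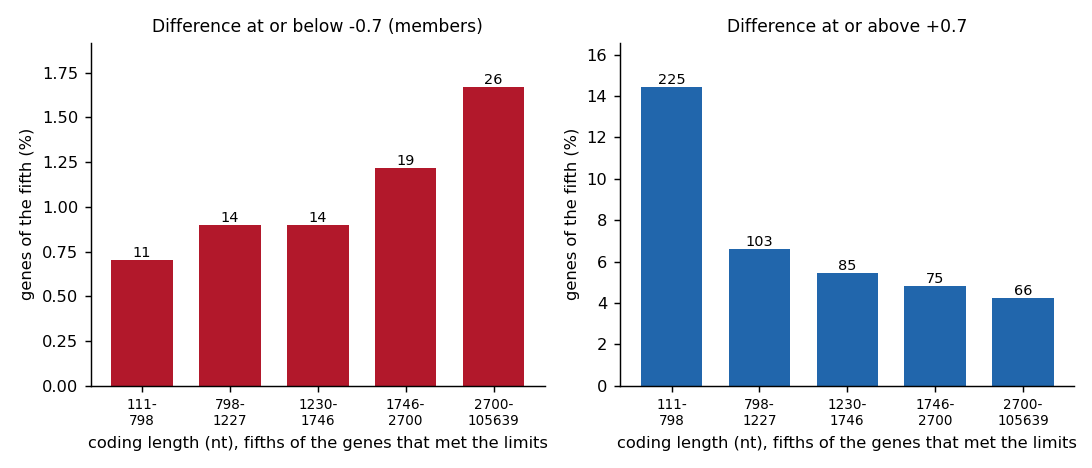
Percent of genes (y axis) that were members (Ribo-seq ratio at least 0.7 below RNA-seq, log2) or lay on the opposite side (at least 0.7 above) in 5 bins of coding length (x axis), with 1559 or 1560 genes in each. Members were most frequent in the bin of longest genes at 1.67% and genes of the opposite side in that of the shortest at 14.4%.

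The 5′SSs of the members scored a little lower than those of all genes that met the limits, and no test was made of this. Of 1467 sites in 82 members with scored introns, 168 (11.5%, 95% Wilson interval 9.92 to 13.2%, counting error only) were among the lowest-scoring 10% of sites, against 10.1% in all genes that met the limits. At least 1 such site was present in 58 of the 82 members (70.7%) and in 62.0% of all genes, but members had more introns. The median score was 8.03 in the members and 8.27 in all. An A at the third intron base was found in 53.3% of member sites and 60.8% of all sites, and a G at the last exon base in 84.6% and 81.3%. Introns that begin with GTATCC on the transcript strand occurred in 5 members (6.10%), *Atm*, *Ipo4*, *Mdn1*, *Tmem150a* and *Tnpo2*, and in 5.13% of all genes. Of the 8 members whose sites are printed above, *Ipo4*, *Itpr3*, *Mdn1*, *Skiv2l* and *Tmem150a* were down-regulated in *Ccdc174-dTAG* without CHX, whereas *Fam169a*, *Tnpo2* and *Ercc4* had log2 fold changes of -0.37, -0.08 and 0.10 and did not pass. Down-regulated there were 31.0% of all members and 7.26% of the genes that met the limits. Genes with many introns, such as *Mdn1* and *Itpr3*, have more sites from which the lowest is taken, and a link of score and down-regulation was not tested. Whether the introns of the printed sites were spliced differently was not measured by gene-level values.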

How the data were processed

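Ribo-seq was measured in 4 libraries and RNA-seq in 28, with 2 per group. The authors mapped them to the mm10 genome with STAR, assigned unique alignments on the sense strand to GENCODE M23 genes by featureCounts, and deposited CPM of 55335 genes. For the Ribo-seq, nuclease-resistant fragments of lysate were cut from a gel by size, without isolation of ribosomes, and the authors trimmed the reads and collapsed duplicates before the same mapping and counting. Dividing the deposited CPM by what 1 read is worth gave whole numbers, within 0.1, for 100% of values, so read counts were recovered for edgeR and DESeq2. Gene names and positions came from GENCODE M21, which held 55154 of the IDs.

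RNA-seq contrasts were tested with limma 3.58.1 (lmFit and eBayes with a trend, R 4.3.3) on log2(CPM divided by median-of-ratios factors + 0.25) of genes averaging 0.5 CPM or more, with Benjamini-Hochberg adjustment over all genes. Libraries without CHX shared 1 fit, libraries with CHX another, and the interaction and the CHX effect used the 16 libraries of the CHX experiments. A gene passed at an adjusted p under 0.01. Fold changes on this scale understate the change of low genes. The scripts were tested on simulated data. Alternatives were other pseudocounts, filters, scalings, edgeR 4.0.16 and DESeq2 1.42.0 on the reads, leaving out each library, and the replicate block. 5′SSs were scored by summed log2 base frequencies over annotated introns relative to equal base use.

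The members and lists were chosen with earlier results of these data known. Named are the 12 members with the lowest difference, the 10 with the most Ribo-seq signal, the 4 lowest and 4 highest in 3 contrasts, the 6 with the largest interaction, members on a functional list, *Dnmt1* and *Tti1*, 3 genes on each side of the limit and 8 with the weakest 5′SS. Other names come from short counts or robust sets and were chosen after their values were seen. The crosslinking libraries of the series were not analysed here.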

Additional observations from a re-analysis of the deposited data

Results flagged for a closer look

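*Kntc1* was the only member for which the effect of CCDC174 depletion differed between cells without and with CHX by the interaction test. The difference was 0.77 on the log2 scale (limma, Benjamini-Hochberg adjusted p = 0.00239), from -1.71 to -0.93, and it was found by limma, edgeR and DESeq2 alike. It was not passed in the fit without a filter on low genes, in the fit of only the compared groups, and without any 1 of 5 libraries.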

How the results depend on the processing

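The number of members, 84 here, was 215 with a WT limit of 1 CPM and 56 with one of 10 CPM. It was 65 with a pseudocount of 1, 87 with one of 0.1, 280 at a limit of -0.5 and 15 at -1. With median-of-ratios scaling it was 135, and 52 to 224 when each library was left out in turn. With the WT limit on the mean of both RNA-seq experiments (chosen after seeing the data) it was 91. For genes lower in *Ccdc174-dTAG* without CHX the count of 26 became 17 in a fit of only the compared groups (3.07% of all genes), 10 to 22 without each library (2.05% to 3.94%), 19 on CPM as deposited (3.00%), 26 with edgeR (4.61%) and 31 with DESeq2 (6.04%), against 4.53% in the fit reported. In the smaller member sets at or below -1 (15 genes) and kept whichever library was left out (24 genes, chosen after seeing the data), the counts were 5 and 11 in *Ccdc174-dTAG* without CHX, 5 and 10 with CHX, 6 and 12 in *Nrde2*-KO with CHX, 6 and 11 in *Mtrex*-KO, 2 and 3 for members raised by CHX in WT, and 0 and 0 for the interaction, because fewer members were counted. Among the 60 members with an RNA-seq mean above -0.5, also set after seeing the data, 9 were lower in *Ccdc174-dTAG* without CHX. Without a filter on low genes, where far more genes were tested, 17 members were lower in *Nrde2*-KO with CHX, 12 in *Ccdc174-dTAG* with CHX, and 0 passed the interaction, as did 0 in a fit of only the compared groups. Leaving out each library gave 17 to 29 members lower in *Nrde2*-KO with CHX, 13 to 20 in *Ccdc174-dTAG* with CHX, 23 to 29 in *Mtrex*-KO, 14 to 19 raised by CHX in WT and 0 to 1 for the interaction. Weak 5′SSs made up 6.203% of member sites at the lowest 5% (5.01% of all) and 21.9% at the lowest 20% (20.01%). No direction of a named gene reversed, and 25 of 31 named results that passed did so under every alternative.

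The replicate numbers pair no more than 2 libraries per group, so pairing was not established. With the replicate number as a block, 87 genes were members, and 28 were lower in *Ccdc174-dTAG* without CHX, 19 with CHX, 26 in *Nrde2*-KO with CHX, 31 in *Mtrex*-KO, with 19 raised by CHX and 1 for the interaction. The deviations of same-numbered libraries correlated at 0.36 to 0.52 in 6 of 8 comparisons, and at 0.099 in the second *Nrde2*-KO experiment without CHX and -0.01 in Ribo-seq. The Ribo-seq depth limits members with under 100 WT reads most.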
